A study of Mus musculus with 8 samples.

Results

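The genes described here are the 9 subunits and inhibitors of the transcription factor NF-kappaB that were chosen by name, 9 of the 56980 genes in the deposited table. The 5 subunits are Nfkb1, Nfkb2, Rel, Rela and Relb. The 4 inhibitors are Nfkbia, Nfkbib, Nfkbiz and Tnfaip3. Each symbol matched 1 Ensembl identifier, and all 9 passed the filter on low counts that left 21991 genes for testing.

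RNA-seq was performed on regulatory T cells (Tregs) sorted by flow cytometry from the peripheral blood of male C57BL/6j mice, which were bought at 8 weeks of age, with 4 libraries in each group. Mice of the high altitude de-acclimatization (HADA) group spent 28 days in a hypobaric chamber that simulated an altitude of 6000 m and were then returned to normoxia, while control mice had no such exposure. The day after the return on which the sequenced Tregs were sorted is not given in the sources used here, and the study's suppression assay defines Tregs as CD4+CD25+ cells. Nothing in the labels ties a library to a separate mouse, so the p-values below measure the spread between libraries.

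NF-kappaB proteins are dimers built from 5 subunits that share a DNA-binding domain. In a resting cell they are held in the cytoplasm by IkappaB proteins. Signals from the T cell receptor, from co-stimulation or from tumor necrosis factor receptors activate the IkappaB kinase complex, which marks IkappaB for degradation and lets the dimers enter the nucleus. The dimers then switch on, among many genes, those of their own inhibitors, which closes a negative feedback loop. In the Treg lineage, Rel is known for its part in the induction of Foxp3, and Rela for maintaining the identity of mature Tregs.

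Short kappaB sites are shown where the promoters of members held them, because they are the DNA letters the dimers recognise. RefSeq promoter windows, which run from 250 bases before to 50 bases after a gene start, were at hand for 6 of the 9 members and not for Nfkb1, Relb and Nfkbiz. The kappaB consensus motif, searched on both strands, was found in 4 of these 6 members and in 6 of their 9 windows. Of these windows, 2 of Nfkb2 overlap and share 1 match, at chr19:46294144-46294153. Among all promoters, 1907 of 32851 windows (5.80%) held the motif, and 6.55% of the genes held it in at least 1 window. The RefSeq sequences are of build GRCm38.p6 and were placed on GRCm39 by exact match. The stretches upstream of Nfkbia, on the minus strand of chr12:55539433-55539552, and of Rel, on the minus strand of chr11:23720970-23721089, are written 5′ to 3′ with the matched bases in capitals.
Nfkbia: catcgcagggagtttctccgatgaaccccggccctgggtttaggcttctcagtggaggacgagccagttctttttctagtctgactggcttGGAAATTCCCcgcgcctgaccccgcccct
Rel: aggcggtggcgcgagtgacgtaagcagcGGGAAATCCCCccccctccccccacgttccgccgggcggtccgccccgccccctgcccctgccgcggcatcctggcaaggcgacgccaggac
The match upstream of Nfkbia starts 29 bases before the RefSeq gene start. The capitals upstream of Rel cover a pair of matches that overlap, starting 92 and 91 bases before the start. The Nfkb2 window nearest to the beginning of its gene held GGGAATTCCC at chr19:46293137-46293146 and GGGGCTTTCC at chr19:46293165-46293174. Tnfaip3 had GGAAATCCCC at chr10:18891161-18891170, 12 bases before its RefSeq start. The RefSeq starts of Nfkb2 and Tnfaip3 lie inside the gene spans of the deposited table, and so do these sites. No match was found in the windows of Rela and Nfkbib. A match is a description of the letters and was not tied to binding in these cells.

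Levels are given as counts scaled to the size of the library after TMM normalization (CPM), in which the genes' lengths are not removed. The totals behind them were 22929193 to 28240337 counts in the HADA libraries, 14452433 to 22584062 in control replicates 2 to 4 and 1477431 in control replicate 1. The floor of 3 counts corresponded to 2.03 CPM before normalization in control replicate 1 and to 0.106 CPM in HADA replicate 1, and covers counting error only. Each of the 9 members had counts in all 8 libraries, the smallest being 4 counts. In sorted cells measured in bulk, fewer cells that express a gene and less RNA per cell cannot be told apart. The counts cover the whole span of each gene, introns included, and gene coordinates are those of the deposited table on GRCm39. The genes checked here whose whole span is shared with another gene, such as Foxp3, were listed at 0 in every library, so reads in shared parts of a span appear not to be counted.

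Control replicate 1 stood apart by its total, and the libraries also differed in cell markers and RNA. Of the 6 Treg markers, Il2ra, Ctla4, Ikzf2, Cd4 and Cd3e had counts in every library, and their sum was 0.144% ± 0.0309 of counts in HADA and 0.0685% ± 0.0228 in control (SD, n = 4, exact permutation test with p = 0.0286, which 4 against 4 cannot go below). Having counts does not by itself show expression, since olfactory and vomeronasal receptor genes also had counts in every library. In control replicate 2, Il2ra was at 10.5 CPM, Ctla4 at 5.07, Cd4 at 3.73, Cd3e at 1.41 and Ikzf2 at 211 CPM. In control replicate 3, Il2ra was at 7.23 and Cd4 at 4.79 CPM. Foxp3, the defining Treg gene, could not be checked, because its whole span is shared and it was listed at 0 in all 8 libraries. Mitochondrial genes took 6.20% ± 1.07 in HADA and 2.19% ± 1.32 in control (n = 4, exact permutation test, p = 0.0286).

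Of 10 myeloid markers, 8 had the higher mean CPM in HADA, and for 3, Fcer1g, Tyrobp and Cst3, the groups did not overlap. Tyrobp, an adaptor of myeloid and NK cell receptors, was at 480, 585, 434 and 499 CPM in HADA and at 79.5, 1.72, 13.1 and 26.5 CPM in control. The summed share ranged from 0.127% to 0.494% in HADA and from 0.0238% to 0.250% in control (n = 4, exact permutation test, p = 0.114), and Itgam, almost wholly covered by another gene, had counts in only 1 library. Summed B cell markers ranged from 0.476% to 1.44% in HADA and from 0.0714% to 1.66% in control, highest in control replicate 1. Myeloid and B cells also express Nfkbia and other members, and the part of these cells in the members' levels was not tested.

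Across the 9 members, HADA Tregs had the higher mean level for 7 and Control Tregs for 2, Nfkb2 and Relb. The change with the largest size was that of Nfkbia, the gene of IkappaB-alpha, at 503 ± 355 CPM (SD, n = 4) in HADA against 44.7 ± 76.7 (SD, n = 4) in control. None of the 9 passed the edgeR thresholds, an adjusted p under 0.05 with a log2 fold change above 1 in size, which 2.13% of the 21991 tested genes passed. At an unadjusted p below 0.05 there was 1 member, Nfkbia, or 11.1%, against 26.7% of all tested genes. DESeq2 placed 1 of 8 members past the thresholds, Nfkbia again, where 6.27% of its 32290 genes were past them and higher in HADA; it gave no adjusted p for Nfkb2. The log2 fold change was positive for 7 of 9 members and for 11045 of 21991 tested genes. Its median was 1.36 over the members and 0.01 over all tested genes.

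**Figure D1:**
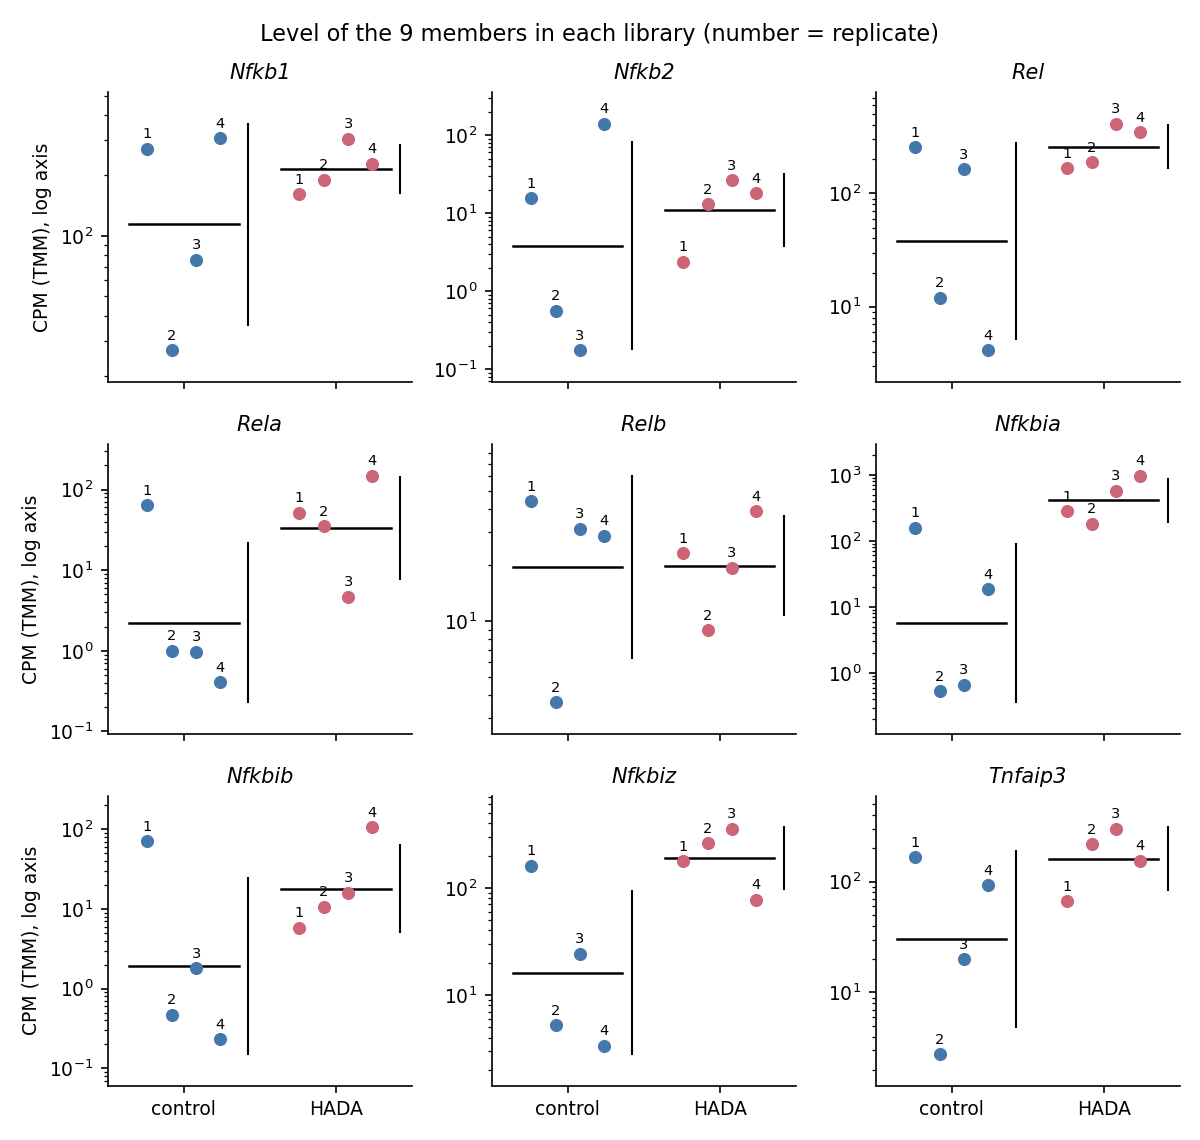
Each panel shows 1 member, with the TMM-normalized CPM on a log axis for the 4 control (blue) and 4 HADA (red) libraries, numbered by replicate. The horizontal line is the geometric mean and the vertical line beside it spans 1 SD either way on the log2 scale. The HADA libraries lie apart from the controls only for Nfkbia, and control replicate 1 is the highest control for 7 members.

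Nfkb1 (ENSMUSG00000028163, chr3:135290416-135397308, minus strand) encodes p105, the precursor of the p50 subunit. Its level was 162, 191, 305 and 229 CPM in HADA replicates 1 to 4 and 272, 26.9, 76.2 and 307 CPM in control replicates 1 to 4. The HADA libraries lay within the range of the controls, of which replicates 1 and 4 were high and replicates 2 and 3 low. HADA exceeded control by a log2 fold change of 0.38 (SE 0.81, adjusted p = 0.765), less than its SE.

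Nfkb2 (ENSMUSG00000025225, chr19:46292759-46300824, plus strand) encodes p100, the precursor of p52 in the non-canonical pathway. The HADA libraries held 2.37, 13.1, 26.5 and 18.1 CPM, and the control libraries 15.5, 0.564, 0.175 and 140 CPM. Control replicate 4 alone lay above every HADA library, and control replicates 2 and 3 lay below all of them. The mean was 15.0 ± 10.1 CPM (SD, n = 4) in HADA and 39.0 ± 67.5 CPM (SD, n = 4) in control, with a log2 fold change of -1.38 (SE 1.53, adjusted p = 0.546). Without control replicate 4 the log2 fold change was 1.60, and its direction turned. Of its span, 20.0% is shared with 4833438C02Rik and Psd.

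Rel (ENSMUSG00000020275, chr11:23686847-23720970, minus strand), the gene of c-Rel, had 167, 190, 413 and 347 CPM in HADA and 255, 12, 165 and 4.11 CPM in control. All 4 HADA libraries were above control replicates 2 to 4, and control replicate 1 was between them. Its log2 fold change was 1.36 (SE 1.08, adjusted p = 0.400).

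Rela (ENSMUSG00000024927, chr19:5687511-5698158, plus strand) encodes p65, the subunit with the strong activation domain of the canonical dimer. Its HADA levels were 51.4, 35.1, 4.67 and 149 CPM. Its control levels were 64.0, 1.0, 0.978 and 0.406 CPM. Control replicate 1 stood far from the other controls and above 3 of the 4 HADA libraries, while the other controls were below every HADA library. Over all 8 libraries the log2 fold change was 1.89 (SE 1.55, adjusted p = 0.413).

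Relb (ENSMUSG00000002983, chr7:19340142-19363363, minus strand), the partner of p52 in the non-canonical pathway, was measured at 23.1, 8.92, 19.3 and 39.1 CPM in HADA. In control it was at 44.1, 3.66, 31.3 and 28.8 CPM. The groups overlapped over most of their ranges, with a log2 fold change of -0.25 (SE 0.88, adjusted p = 0.859).

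Nfkbia (ENSMUSG00000021025, chr12:55536195-55539432, minus strand) encodes IkappaB-alpha, which retains the dimers in the cytoplasm and is resynthesised when they are active. The HADA libraries held 281, 182, 577 and 972 CPM. The control libraries held 159, 0.532, 0.664 and 18.5 CPM. All 4 HADA libraries were above all 4 controls, an order that 9.13% of the tested genes showed, and Nfkbia was the 1 member of 9 to show it. The edgeR log2 fold change was 3.51 (SE 1.52), or 11.4-fold, with an unadjusted p of 0.0391 and an adjusted p of 0.170. With DESeq2 it was 3.53 (SE 1.31, adjusted p = 0.0467), and with limma on log2(CPM + 1) it was 5.45 (SE 1.36, adjusted p = 0.0489). The gene is short, and per kilobase of its whole span it was at 155 ± 110 CPM (SD, n = 4) in HADA, the highest of the members. Tnfaip3 at 12.5 ± 6.71 and Rel at 8.19 ± 3.51 CPM per kilobase followed. Relb was the lowest, at 0.974 ± 0.539 CPM per kilobase. Below Nfkbia, neighbours in the order differed by less than the larger SD of the pair. The spans include introns and shared parts, and run from 3.24 kb for Nfkbia to 107 kb for Nfkb1. The order therefore depends on span and is not one of transcript levels.

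Nfkbib (ENSMUSG00000030595, chr7:28457676-28466937, minus strand), the gene of IkappaB-beta, had 5.80, 10.6, 15.9 and 105 CPM in HADA and 70.2, 0.470, 1.82 and 0.232 CPM in control. HADA replicate 4 and control replicate 1 were far above the other libraries of their groups, and the log2 fold change was 0.95 (SE 1.58, adjusted p = 0.695). Of its span, 16.2% is shared with Ccer2 and Sirt2.

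Nfkbiz (ENSMUSG00000035356, chr16:55631738-55659262, minus strand) encodes IkappaB-zeta, a nuclear protein that modulates p50 target genes. Its HADA levels were 177, 262, 356 and 77.1 CPM and its control levels 161, 5.23, 24.2 and 3.36 CPM. Only control replicate 1 reached the HADA range, where it exceeded HADA replicate 4. The log2 fold change was 2.18 (SE 1.16, adjusted p = 0.232), the next after Nfkbia by size.

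Tnfaip3 (ENSMUSG00000019850, chr10:18876658-18891405, minus strand) encodes A20, a ubiquitin-editing enzyme that shuts off signalling above the IkappaB kinase complex. HADA Tregs had 66.4, 218, 300.1 and 154 CPM and Control Tregs 166, 2.79, 19.9 and 92.9 CPM. HADA replicate 1 was below control replicates 1 and 4. The mean was 185 ± 99.0 CPM (SD, n = 4) against 70.4 ± 74.7 CPM (SD, n = 4), with a log2 fold change of 1.40 (SE 1.05, adjusted p = 0.372).

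The controls varied more than the HADA libraries for each of the 9 members. The highest control was 11.4 to 800 times the lowest, and the highest HADA library 1.89 to 32.0 times the lowest. Control replicate 1 was the highest control for 7 members and control replicate 4 for Nfkb1 and Nfkb2. The lowest control was replicate 2 for 4 members, replicate 4 for 4 and replicate 3 for 1. No control was the lowest for every member.

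Control replicate 1, with the smallest total, decided several of these values. Without it, 4 of the 9 members (44.4%) passed the edgeR thresholds and were higher in HADA, against 15.5% of 24048 genes that were higher and 35.1% that passed in either direction. These were Rela at a log2 fold change of 6.37 (SE 1.32, adjusted p = 0.0134), Nfkbia at 6.36 (SE 1.68, adjusted p = 0.0254), Nfkbib at 5.48 (SE 1.45, adjusted p = 0.0256) and Nfkbiz at 4.45 (SE 1.03, adjusted p = 0.0179). Control replicate 1 was the highest control for each of these 4. In control replicates 2 to 4, Rela was at 0.279, 0.318 and 0.189 times the receptor-gene background described below, and Nfkbib at 0.179, 0.811 and 0.148 times. Their fold changes therefore compare HADA with counts under that background. Nfkbia was under it in control replicates 2 and 3, and Nfkbiz in control replicates 2 and 4. Rel, at 2.34, and Tnfaip3, at 2.36, did not pass, with adjusted p of 0.162 and 0.136. All 4 HADA libraries were above control replicates 2 to 4 for 5 of 9 members, and for 18.4% of the tested genes. The median was then 2.36 over the members and -0.025 over the 24048 genes of that fit.

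**Figure D2:**
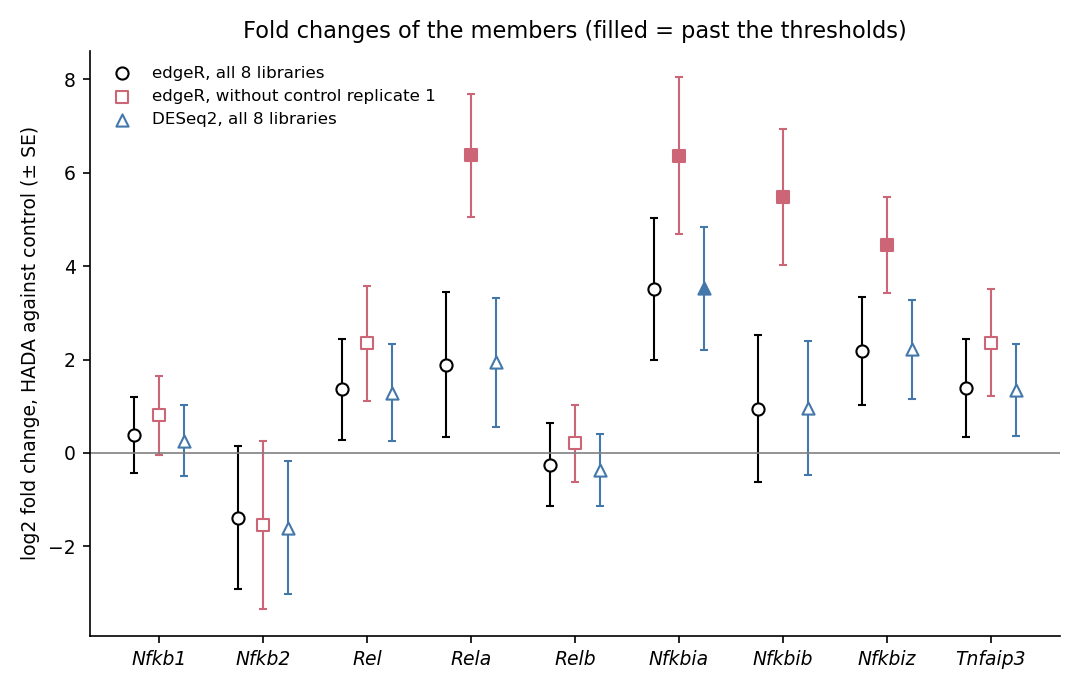
The log2 fold change of HADA against control is plotted for each member, with bars of 1 SE, by edgeR on all 8 libraries (black circles), by edgeR without control replicate 1 (red squares) and by DESeq2 on all 8 libraries (blue triangles). Filled symbols are past the adjusted p and fold thresholds. The black circles are all open, and the red squares are filled for Rela, Nfkbia, Nfkbib and Nfkbiz.

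The low control values lie near or under the density of counts on genes that T cells are not known to express. Olfactory and vomeronasal receptor genes without overlap, 1393 in number, took 0.0571%, 0.788%, 0.387% and 0.171% of the counts in control replicates 1 to 4 and 0.0798% to 0.204% in the HADA libraries. The count that this density per kilobase would give over a member's span was compared with its own count. In control replicate 2 all 9 members were under 2 times this background, with a median ratio of 0.487, and so were 93.8% of all tested genes. Nfkb1 in that library had 858 counts, where the background density would give 1110. Some values were far under the density, such as Nfkb2 at 0.0938 times in control replicate 3 and Nfkbib at 0.148 in replicate 4. The median ratio of all tested genes was 0.657, 0.639 and 0.672 in control replicates 2 to 4. The receptor-gene density may therefore overstate the background of a gene.

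Control replicates 3 and 4 each had 4 of 9 members under 2 times the background, with Rela and Nfkbib among them in both, against 85.4% and 78.0% of all tested genes. In replicate 3 the others were Nfkb2 and Nfkbia, while Rel was at 16.7 times. In replicate 4 the others were Rel and Nfkbiz, while Nfkb2 was at 107 times, Tnfaip3 at 31.2 and Nfkbia at 28.4. Control replicate 1 had no member under 2 times, against 48.5% of all genes, and its median was 121. In HADA the medians were 21.3, 17.8, 24.0 and 84.3 in replicates 1 to 4, and Nfkb2 in replicate 1, at 1.74, was the 1 value under 2 times, against 56.7% to 64.3% of all genes in these libraries.

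With this background subtracted, 0 of 9 members passed the thresholds in edgeR, and Nfkbia had a log2 fold change of 3.21 (SE 1.92, adjusted p = 0.732). After the subtraction 9183 genes were tested, not 21991, and their median was 1.0, above the 0.73 of the members. It is not over the same genes as the median before the subtraction. With the background subtracted and control replicate 1 left out, an alternative chosen after seeing the data, Rela and Nfkbib passed and were higher in HADA.

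**Figure D3:**
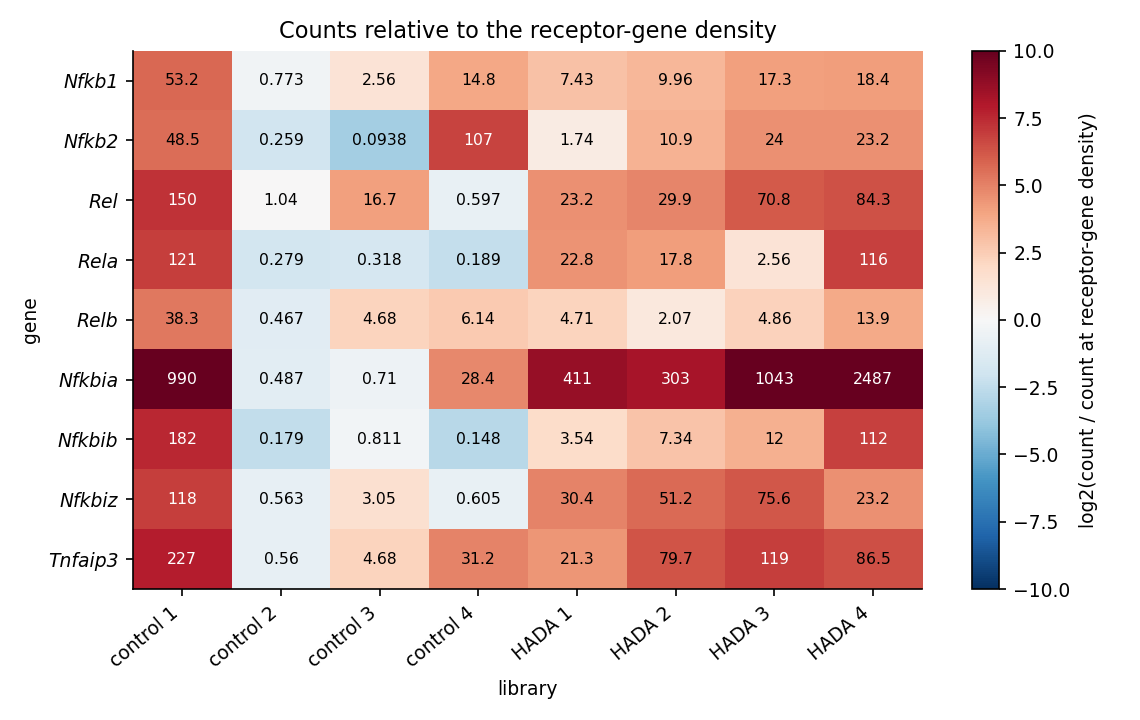
Rows are the 9 members and columns the 8 libraries, and each cell gives the count divided by the count expected from the receptor-gene density over the gene's span, coloured on a log2 scale (red above, blue below). Control replicate 2 is blue or pale for all members, and control replicates 3 and 4 are blue for Rela and Nfkbib but differ for Nfkb2, Rel, Nfkbia and Nfkbiz.

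Ratios between members within 1 library do not depend on its total. Nfkbia counts per Nfkb1 count were 1.74, 0.957, 1.89 and 4.25 in HADA and 0.584, 0.0198, 0.00872 and 0.0604 in control. The control ratios were all lower, but in control replicates 2 and 3 Nfkbia lay under the receptor-gene background, and in replicate 2 so did Nfkb1. There the background alone, which follows the gene spans, would give 34.9 counts for Nfkbia and 1110 for Nfkb1, so these control ratios do not measure levels. The same holds for the other ratios where a member was under 2 times the background. Rel per Nfkb1 was 1.04, 0.996, 1.35 and 1.52 in HADA, a narrow range, and 0.936, 0.448, 2.16 and 0.0134 in control, on both sides of it. Nfkb2 per Nfkb1 was 0.0147 to 0.0868 in HADA and 0.00229 to 0.455 in control, and these overlapped. Nfkb2 was under 2 times the background in control replicates 2 and 3 and in HADA replicate 1. Nfkbia per Rel was 0.961 to 2.80 in HADA and 4.51 in control replicate 4, where Rel lay under the background. In control replicates 2 and 3 Nfkbia lay under it, and control replicate 1 was at 0.624. This ratio was therefore not compared between the groups. Nfkbiz per Nfkb1, Tnfaip3 per Nfkb1 and Nfkbia per Rela were also computed, and the groups overlapped in each. Nfkbiz per Nfkb1 was 0.591 in control replicate 1 and 0.337 in HADA replicate 4. Tnfaip3 per Nfkb1 was 0.610 in control replicate 1 and 0.411 in HADA replicate 1. Nfkbia per Rela was 45.7 in control replicate 4 and 5.19 in HADA replicate 2.

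**Figure D4:**
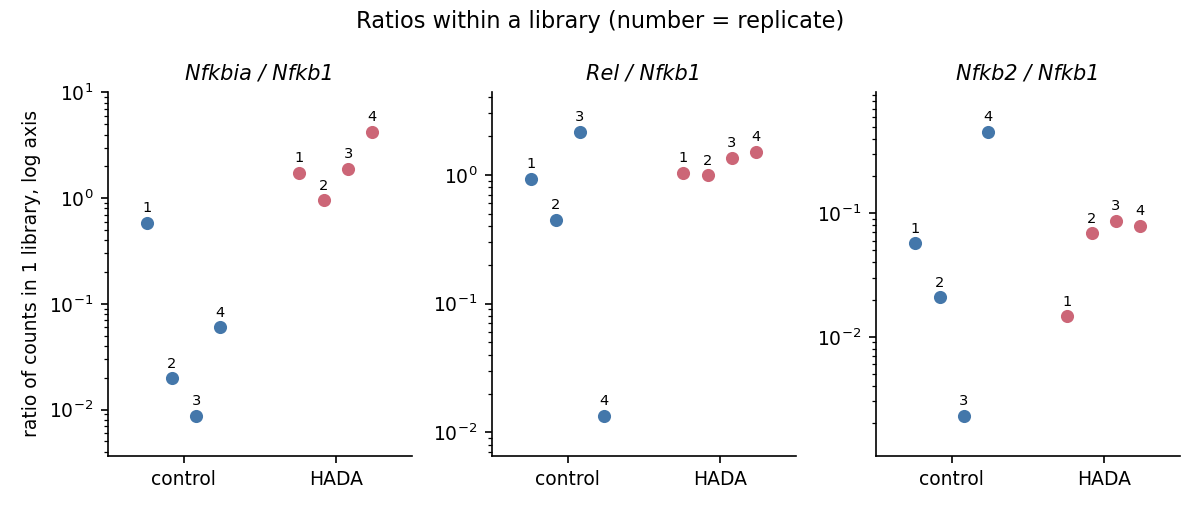
The ratio of counts of 2 members in the same library is drawn on a log axis for control (blue) and HADA (red), numbered by replicate. Nfkbia per Nfkb1 is at 0.957 or more in HADA and at 0.584 or less in control, where replicates 2 and 3 rest on counts under the background. The other ratios overlap. Counts under 2 times the background also enter Rel per Nfkb1 in control replicates 2 and 4. They enter Nfkb2 per Nfkb1 in control replicates 2 and 3 and HADA replicate 1.

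The wider pathway was described with a list of 39 signalling genes (kinases, adaptors, ubiquitin enzymes, receptors and other IkappaB proteins), all tested, and a list of 36 target genes, of which 29 were tested. In the signalling list 1 gene passed the thresholds, higher in HADA, and none lower, and 33 of 39 had a positive log2 fold change with a median of 0.96. In the target list 1 passed, higher in HADA, and 26 of 29 were positive with a median of 1.79. Of all tested genes, 11045 of 21991 were positive, with a median of 0.01. The share passing in all tested genes was 2.13%. At an unadjusted p below 0.05 there were 6 signalling genes (15.4%) and 7 target genes (24.1%), against 26.7% of all genes. Without control replicate 1, 20 of 39 signalling and 14 of 29 target genes were past the thresholds and higher, and none lower. Of the 24048 genes of that fit, 3716 (15.5%) were past and higher and 4732 were past and lower. In control replicates 1 to 4, 2, 36, 29 and 21 of 39 signalling genes and 1, 25, 15 and 15 of 29 target genes were under 2 times the receptor-gene background, where the shares of all genes were 48.5%, 93.8%, 85.4% and 78.0%. In the HADA libraries 2 to 5 signalling and 1 to 4 target genes were.

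Tab1, an adaptor of the kinase TAK1 that acts above the IkappaB kinases, was the signalling gene that passed. It was at 36.9, 52.7, 42.7 and 18 CPM in HADA and at 1.24, 2.32, 1.92 and 1.10 CPM in control, and the groups did not overlap. The log2 fold change was 4.48 (SE 0.86, adjusted p = 0.0244). Its value in control replicate 1 was 2 counts, under the floor. In control replicates 2 to 4 it had 74, 55 and 19 counts over a span of 28581 bases. These lay under the receptor-gene densities of 10.8, 8.26 and 3.48 counts per kilobase in those libraries. It lost the call in 8 of 17 alternatives, among them the replicate block (adjusted p = 0.0746), the subtracted background (adjusted p = 0.103) and the fits without HADA replicate 1 or 2 or control replicate 2, 3 or 4 (adjusted p of 0.0521 to 0.122), with a log2 fold change of at least 3.20 in each. Ikbkg, the gene of the regulatory subunit NEMO of the kinase complex, had 45.8, 109, 74.1 and 114 CPM in HADA and 19.3, 4.67, 3.53 and 2.61 CPM in control. It did not pass, with a log2 fold change of 3.55 (SE 0.94, adjusted p = 0.0704), and 32.5% of its span is shared with G6pdx. It passed in 5 of 18 alternatives, among them DESeq2 (adjusted p = 4.82e-05). Traf2, an adaptor of tumor necrosis factor receptors, had a value of 2.43 (SE 1.0, adjusted p = 0.157) and passed in 3 of 18 alternatives. Commd1, which promotes the turnover of p65, had 6.40 (adjusted p = 0.0553), but 99.7% of its span is shared with Commd1b and its few counts are uncertain.

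Il6, a cytokine gene and textbook NF-kappaB target, was the target gene that passed. It was at 54.7, 38.6, 45.9 and 31.6 CPM in HADA and at 0, 1.75, 1.29 and 3.36 CPM in control, where the 0 of replicate 1 lies under a floor of 2.03 CPM. Over its span of 6868 bases, 56 and 37 counts in control replicates 2 and 3 lay under the receptor-gene densities given for Tab1. The 58 counts in control replicate 4 lay above that density. Its log2 fold change was 4.65 (SE 1.03, adjusted p = 0.0407). It lost the call in 12 of 17 alternatives, among them the replicate block (adjusted p = 0.0867), the subtracted background (adjusted p = 0.445) and each fit that left out a library other than control replicate 1 (adjusted p of 0.0603 to 0.153), with a log2 fold change of 4.19 or more in each. The chemokine gene Ccl3 had 220, 112, 149 and 434 CPM in HADA and 14.9, 0.251, 1.82 and 0 CPM in control, at a log2 fold change of 5.89 (SE 1.66, adjusted p = 0.0821), and 56.4% of its span is shared with Gm53692. Ccl3 passed in 6 of 17 alternatives. Its neighbour Ccl4 had 5.03 (SE 1.51, adjusted p = 0.0927), and passed in 7 of 17, among them the replicate block (adjusted p = 0.0344). With DESeq2 the adjusted p was 0.000442 for Ccl3 and 0.00129 for Ccl4. Neither passed with the background subtracted over all 8 libraries (adjusted p of 0.225 and 0.416). Bcl2a1b, of an anti-apoptotic family with near-identical copies, had 4.95 (adjusted p = 0.127) with 98.0% of its span shared, and is uncertain. Il6, Ccl3 and Ccl4 are also made by myeloid cells. Of the 10 myeloid markers, 8 had the higher mean CPM in HADA, while Adgre1 and Cd14 had the lower. The groups did not overlap for 3 of the 10, and the summed share had p = 0.114 (exact permutation test). The part of those cells was not tested.

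Over the 8 libraries, the tested genes whose log2 CPM was most like the mean of the 9 members were Dedd2, Snrnp27, Rac1, Crlf3 and Pnn, with Pearson's r of 0.994, 0.991, 0.988, 0.987 and 0.983. This is a description over 8 libraries that share their depth and background. Their log2 fold changes were 1.49 to 2.42 with adjusted p of 0.212 to 0.322, and none passed. The members' own mean centred log2 CPM was 1.68, -3.58, -2.02 and -1.36 in control replicates 1 to 4 and 0.66, 1.04, 1.51 and 2.07 in HADA replicates 1 to 4.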

How the data were processed

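Per the labels and the paper's methods, the authors made cDNA from sorted Tregs with a low-input kit, used FastQC and Trimmomatic on the reads, STAR for alignment to GRCm39, and featureCounts. The deposited values are raw counts per gene over the whole gene span, without normalization. Strand and multi-mapping settings are not given in the sources used here. Gene symbols came from GENCODE vM39, in which 56236 of 56980 identifiers (98.7%) were found, and printed gene coordinates are those of the deposited table. No 2 libraries had identical counts.

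Groups and replicate numbers came from the labels. All genes were fitted once with edgeR 4.0.16 in R 4.3.3 (TMM, filterByExpr, quasi-likelihood test, no covariate), and p-values were adjusted by Benjamini-Hochberg over the 21991 genes tested. Passing meant an adjusted p under 0.05 with a log2 fold change above 1 in size. DESeq2 1.42.0, the authors' tool, and limma 3.58.1 were alternatives, with other filters, random draws (seed 1) that gave every library the smallest total, a replicate block, subtraction of the receptor-gene background, and each library left out in turn. Shares of counts were tested by exact two-sided permutation over 70 splits. Ratios, lists and promoter matches were computed in Python 3.11.15.

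The members and lists were chosen with earlier results of these data known. Named were all members, the 4 genes with the smallest p and every gene past the thresholds in each list, the 5 genes most alike to the members, and the label checks Foxp3, Il2ra and Cd4. The other marker genes named come from marker lists fixed with the design. Tyrobp, Fcer1g, Cst3, Adgre1, Cd14 and the markers at or near 0 were singled out after their values were seen. On simulated data of 21991 genes, 200 were changed by a log2 fold of 3. Of these, edgeR recovered 94.5% at a dispersion of 0.2 and 0% at 0.805, the common dispersion estimated here. At 0.805 DESeq2 recovered 32.5%, with 42% of its calls false. Every simulated gene had the same dispersion, and neither a background nor a deviating library was simulated. These shares therefore do not carry over to the calls in the real libraries.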

Additional observations from a re-analysis of the deposited data

Results flagged for a closer look

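Among 34 groups of 4 libraries tested for a library far from the rest, 2 held one, where chance alone gives about 1.7. The log2 CPM of Rela in control replicate 1 was 6.0, and the other controls lay between -0.99 and 0.14. The share of counts on erythroid markers in control replicate 1 was 3.08%, and the other controls lay between 0.226% and 0.583%. Alas2, one of these markers, was listed at 0 in all libraries.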

How the results depend on the processing

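The count of members past the thresholds was 0 in 15 of 19 alternatives, of which the one with at least 10 counts in every library held 6 of the 9 members. It was 1 with DESeq2, 1 with limma on log2(CPM + 1), 4 without control replicate 1 (0 to 4 over the libraries left out) and 2 with the background subtracted and control replicate 1 left out, which was chosen after seeing the data. Directions turned for Nfkb1 with at least 10 counts in every library (-0.10) or libraries drawn down (-0.15), for Nfkb2 with limma on log2(CPM + 1) (0.63) or log2(CPM + 0.1) (1.33) and without control replicate 4 (1.60), for Relb with limma on log2(CPM + 0.1) (0.019) and without HADA replicate 2 (0.10) or control replicate 1 (0.20), and for Nfkbib without HADA replicate 4 (-0.68). With libraries left out, Nfkb2 ranged from -1.80 to 1.60, Relb from -0.62 to 0.20 and Nfkbib from -0.68 to 5.48. The causes were not tested. Rel, Rela, Nfkbia, Nfkbiz and Tnfaip3 kept their direction in each alternative that gave them a value, which the one with at least 10 counts did not for Rela.

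Same-numbered libraries deviated together with correlations of -0.21, 0.25, -0.08 and -0.003. Only control replicate 2 was most like the HADA library of its own number, and nothing says that same-numbered libraries are pairs. With a replicate block, 169 genes and 0 members passed, and Nfkb2 turned to 1.23 and Relb to 0.015.

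The number of all genes past the thresholds, 468 (363 higher, 105 lower), was 5322 with DESeq2 (2026 higher, 3296 lower), 890 with limma on log2(CPM + 1) (814 higher), 226 with at least 10 counts (93 higher), 224 drawn down (120 higher), 201 with the background subtracted (99 higher), 2662 with that and without control replicate 1, and 29 to 8448 with each library left out, the lowest without control replicate 3. In the order DESeq2, limma on log2(CPM + 1), limma on log2(CPM + 0.1), background subtracted and this without control replicate 1, the signalling list had 4, 2, 2, 0 and 10 genes past and the target list 6, 4, 3, 0 and 12, with 1 lower in HADA among the 6 and 1 among the 12. Signalling was 0 with at least 10 counts, drawn down and under the block, and 0 to 20 with libraries left out. Targets were 1, lower in HADA, with at least 10 counts, 0 with DESeq2 size factors, 2 drawn down and 0 to 14 with libraries left out. The highest of each was without control replicate 1. The all-gene median log2 fold change was -0.99 over 41823 genes with DESeq2 and -0.37 over 41823 with edgeR and no filter. It was 1.0 over 9183 genes with the background subtracted. These gene sets differ from the 21991 of the main fit. With libraries left out, the differences in share (HADA minus control, percentage points) were 3.49 to 4.55 for mitochondrial genes, 0.0628 to 0.0859 for Treg, -1.30 to -0.351 for erythroid and 0.0398 to 0.0802 for platelet markers, with exact permutation p of 0.0286 to 0.0571 for the first pair.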

Other observations

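Counts on erythroid markers took 0.0940% in HADA and 1.10% in control on average (n = 4, exact permutation test, p = 0.0571), and those on platelet markers 0.0845% and 0.0232% (n = 4, exact permutation test, p = 0.0571). NK and cytotoxic markers took 0.0183% in HADA and 0.00384% in control (n = 4, exact permutation test, p = 0.229). They ranged from 0.000584% to 0.0527% in HADA, highest in replicate 4, and from 0.00054% to 0.00817% in control. Of these 6 markers, 5 had the higher mean CPM in HADA, and Prf1 had the lower. Ms4a1 was listed at 0 in all libraries.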
